A study of Oncorhynchus mykiss with 6 samples.

Results

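Lipoprotein lipase, its inhibitor gene angptl4, an apolipoprotein B gene, the fatty acid binding protein gene fabp2, and the genes of pyruvate dehydrogenase kinase and carnitine palmitoyltransferase were followed in rainbow trout liver under heat. They were taken by symbol from the deposited table, as every entry named LPL, APOB or fabp2, or with a name that begins with angptl4, Pdk2 or CPT1A. This gave 7 of the 5045 listed genes, namely LPL, angptl4, APOB, fabp2, Pdk2, pdk2a and CPT1A, each with a single entry. RNA-seq libraries of rainbow trout (Oncorhynchus mykiss) liver were compared between 3 control libraries at 18 °C and 3 libraries at 24 °C for 8 h. The labels name no strain, sex or age, and they do not tell whether live fish or excised liver was warmed. Nothing in them ties the libraries to separate fish. The p-values given here therefore rest on the spread among libraries, which limma-voom pools in part over genes. That spread may be technical.

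Lipoprotein lipase is an enzyme of the vessel wall that splits the triglyceride of circulating lipoproteins and so hands fatty acids to the tissue beside it. In mammals, the secreted protein ANGPTL4 inactivates it and is itself made under fasting, glucocorticoids and PPAR activation, whereas apolipoprotein B is the structural protein on which triglyceride-rich particles are built in liver and gut. Inside the cell, pyruvate dehydrogenase kinases switch off the enzyme that feeds carbohydrate carbon into the mitochondrion, and CPT1 admits long-chain fatty acids to it. Adult liver of mammals holds little lipoprotein lipase, while the liver of many fishes, trout among them, expresses the gene.

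The listed genes had been selected by the authors on the same contrast. In the authors' deposited table no adjusted p exceeds 0.049875, and the smallest log2 fold change, sign ignored, is 1.00019. Counts over the listed genes summed to between 1409460 and 1421082 in the control libraries and between 2663575 and 3586127 in the heat libraries. Whole-library totals, recovered relative to control replicate 1, ran from 0.999 to 1.55. With limma-voom, 100% of the 4766 listed genes with enough reads passed a Benjamini-Hochberg adjusted p of 0.05, of which 58.1% rose and 41.9% fell. In 99.4% of the 5045 listed genes the control and heat libraries did not overlap. That a gene named here passed, or that its groups did not overlap, is therefore a property of the list. Counts of rises and falls given below are to be read beside these shares, and they count each copy of a gene separately. The results are the directions, sizes and levels. All values are FPKM, fragments scaled to gene length and library depth, unless a count or a log2 fold change is named.

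LPL fell and angptl4 rose, and the order of their levels turned over. LPL stood at 26.6, 27.5 and 25.8 FPKM in control replicates 1 to 3 and at 4.201, 5.345 and 5.036 FPKM in heat replicates 1 to 3. The highest heat library was 4.83-fold below the lowest control library. The fitted log2 fold change was -2.48 ± 0.10 (SE, n = 3 per group, limma-voom adjusted p = 9.46e-29), a 5.56-fold fall with a 95% confidence interval from 4.86 to 6.37. This interval and those that follow hold for libraries scaled by their recovered totals and do not cover the choice of scaling. They and the p-values also rest on variance shared over genes that had been selected as changed, and make no allowance for that selection. Under median-of-ratios scaling, which treats the typical listed gene as constant, the LPL fall was 10.3-fold. Because these are bulk libraries, fewer cells of a type and less RNA per cell cannot be told apart, here or in any result that follows.

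The inhibitor gene angptl4 was at 3.89, 3.82 and 2.97 FPKM in the control libraries and at 21.4, 22.1 and 22.4 FPKM in the heat libraries. All heat libraries lay far above all control libraries, and relative to their mean they were closer together, with a coefficient of variation of 2.46% against 14.3%. Its log2 fold change was 2.63 ± 0.12 (SE, n = 3 per group, limma-voom adjusted p = 2.85e-26), a 6.19-fold rise with a 95% interval from 5.25 to 7.29, and with median-of-ratios scaling the rise was 3.33-fold. The ratio of angptl4 to LPL within a library, both per length, was 0.146, 0.139 and 0.115 in the control libraries. In the heat libraries it was 5.08, 4.13 and 4.45. Transcripts of the enzyme thus exceeded those of the inhibitor in every control library, and the reverse held in every heat library, a 34.2-fold shift of the ratio that does not depend on how libraries are scaled.

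**Figure D1:**
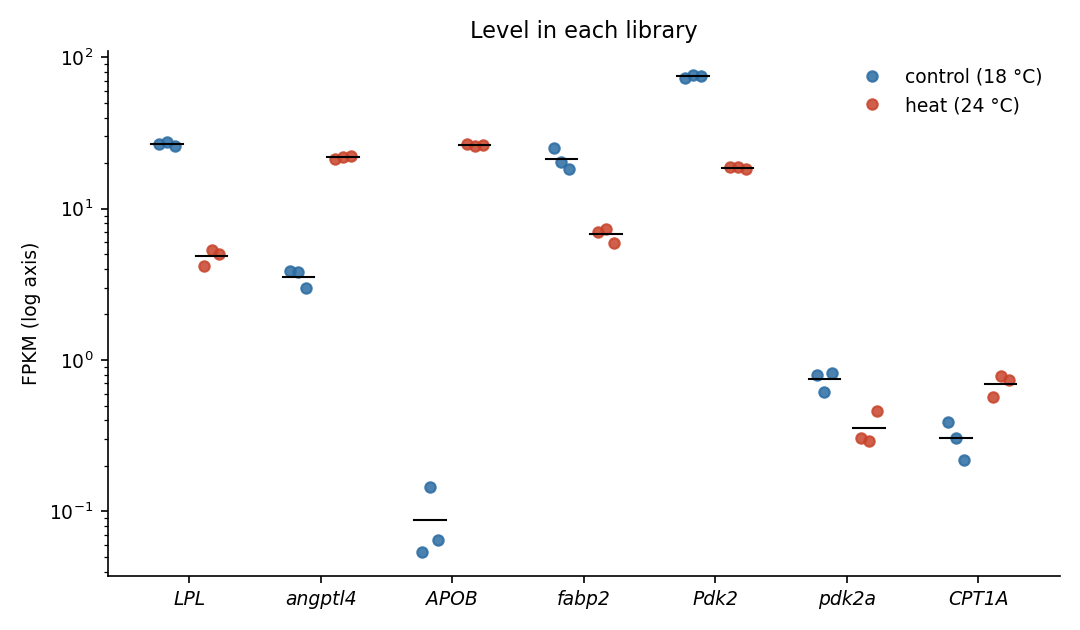
Level of each of the 7 genes in each library, in FPKM on a log axis; points are libraries (control at 18 °C in blue, heat at 24 °C in red) and lines are group means (n = 3). APOB moves from between 0.054 and 0.144 FPKM to between 25.8 and 26.9 FPKM, and in no gene do the groups overlap.

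**Figure D2:**
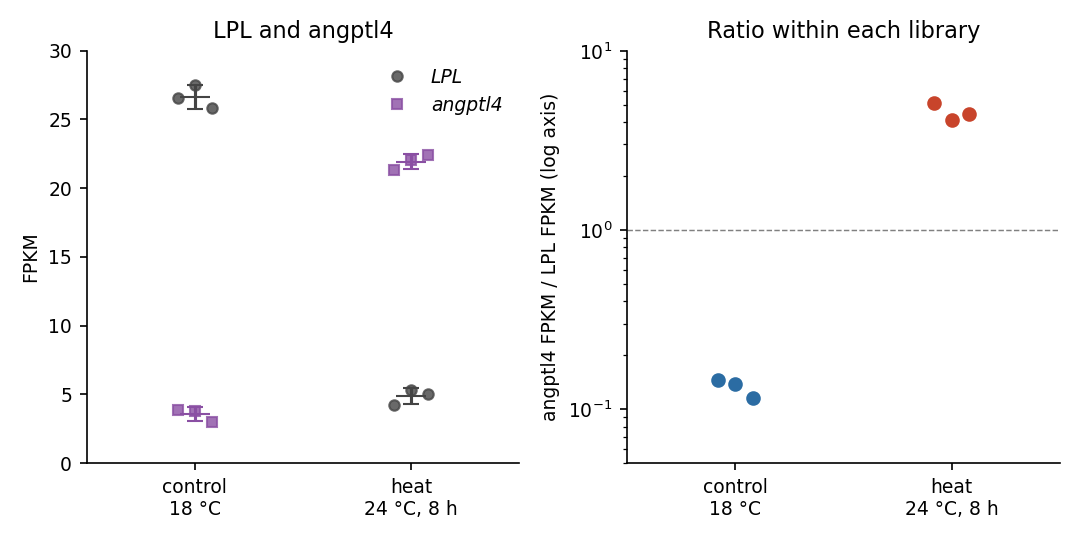
Left, LPL (circles) and angptl4 (squares) in FPKM on a linear axis from 0, with the mean and SD of 3 libraries per group; right, the ratio of angptl4 to LPL in each library on a log axis, with a dashed line at equal levels. The ratio lies between 0.115 and 0.146 in the control libraries and between 4.13 and 5.08 in the heat libraries.

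A list of genes that act on lipoprotein lipase, together with other lipases and their regulators, held 14 listed genes, all of them tested. Of these 4 rose and 10 fell, with a median log2 fold change of -1.44 against 1.13 over all 4766 tested genes. The list mixes both kinds, so these counts are not a result about lipoprotein lipase alone. SEL1L, an adaptor of endoplasmic reticulum quality control that LPL needs for its maturation in mice, rose from 6.31 ± 0.345 to 48.4 ± 1.63 FPKM (SD, n = 3), which is 7.66-fold. Both copies of LMF2, a relative of the lipase maturation factor LMF1, also rose, with log2 fold changes of 1.83 and 2.08; they are named here after their values were seen. The more abundant copy of PNPLA2, the triglyceride lipase of the lipid droplet, fell from 10.7 ± 0.209 to 2.46 ± 0.625 FPKM. Of the copies of G0s2, whose product inhibits PNPLA2 in mammals, one rose from 1.02 ± 0.228 to 16.5 ± 2.70 FPKM and the other fell from 11.8 ± 0.697 to 1.81 ± 0.476 FPKM. Falls were also seen, and are named for that reason, in ABHD5, the co-activator of PNPLA2, with a log2 fold change of -1.45, the hormone-sensitive lipase gene LIPE with -1.18 and the endothelial lipase gene LIPG with -1.43. A further entry, lipe1, was not matched to the list and is not in these counts. It was higher in heat, at 1.05 FPKM in control and 10.6 FPKM in heat, so the fall of LIPE does not hold for every entry of that name.

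APOB changed most of the 7 genes. It held 9, 25 and 11 reads in control replicates 1 to 3, or 0.054, 0.144 and 0.065 FPKM. In heat replicates 1 to 3 it held 7200, 5217 and 5139 reads, or 26.9, 25.8 and 26.2 FPKM. Every control library was near 0, control replicate 2 supplied most of the control reads, and the heat libraries agreed within a coefficient of variation of 2.08%. The log2 fold change was 8.35 ± 0.33 (SE, n = 3 per group, limma-voom adjusted p = 2.00e-28), a 326-fold rise with a 95% interval from 205 to 518, and with median-of-ratios scaling the rise was 175-fold. Only 4 of the tested genes rose by a larger factor. Reads per FPKM at equal library totals, a measure of the gene length the authors used, were 4.01 times those of LPL. The entry was thus counted over a much longer gene model than LPL, and apolipoprotein B is among the largest of plasma proteins. The length alone does not tell which apolipoprotein B gene the entry is. This was the single entry under the name APOB among the listed genes, and other apolipoprotein B genes of the trout were not analysed here. Its values therefore do not give the total apolipoprotein B transcript of the liver in either group.

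Genes that load, fold and export lipoprotein particles rose beside APOB. Of 15 tested, 14 rose and 1 fell, with a median log2 fold change of 1.41 against 1.13 over all tested genes. With median-of-ratios scaling these medians were 0.51 and 0.24. None of the 15 is an apolipoprotein gene. The rises included 3 copies of DGAT1 and 2 copies each of surf4, SEC24D and Arfgap1. Of all tested genes 58.1% rose. MTTP, the transfer protein that loads lipid onto apolipoprotein B (named after its value was seen), was at 21.2 ± 0.886 FPKM in control and 46.0 ± 0.182 FPKM in heat, a log2 fold change of 1.13. The sterol esterifying enzyme gene soat2 rose from 7.97 ± 0.442 to 62.2 ± 1.13 FPKM. A copy of surf4, the cargo receptor that carries lipoproteins out of the endoplasmic reticulum in mice, rose from 9.37 ± 0.719 to 49.6 ± 2.53 FPKM. MIA2, an exit-site protein for bulky cargo, rose from 3.71 ± 0.237 to 14.9 ± 1.001 FPKM, and a copy of Arfgap1, a regulator of Golgi coats, from 2.52 ± 0.134 to 8.07 ± 0.750 FPKM. The exception, chosen for that reason, was the sorting receptor gene sort1a, which fell from 0.272 ± 0.0811 to 0.0727 ± 0.0425 FPKM. Several of these genes serve secretion in general and not lipoproteins alone, and a copy of DGAT1, the triglyceride synthesis gene, lost its call with listed-count and median-of-ratios scaling.

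Genes of lipoprotein uptake and plasma remodelling went both ways, with 5 rises and 5 falls among 10 tested. The cholesterol exporter gene ABCA1 rose from 8.48 ± 0.598 to 22.1 ± 0.493 FPKM and the sterol exporter gene abcg5 fell from 19.1 ± 1.31 to 7.37 ± 0.225 FPKM. The entry abca1b, named after its value was seen, fell from 6.81 ± 0.235 to 2.88 ± 0.199 FPKM, so the rise of ABCA1 does not hold for every entry of that name. The entry lrp1ba, named for a relative of the lipoprotein receptor gene LRP1, had 1 read in all control libraries together and 963 in the heat libraries.

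The binding protein gene fabp2, which marks the absorptive cell of the gut in mammals, fell. It was at 25.0, 20.4 and 18.1 FPKM in control replicates 1 to 3 and at 7.05, 7.30 and 5.96 FPKM in heat replicates 1 to 3. The control libraries spread more widely than the heat libraries, and the lowest of them was 2.49-fold above the highest heat library. Its log2 fold change was -1.63 ± 0.16 (SE, n = 3 per group, limma-voom adjusted p = 5.15e-13), a 3.09-fold fall with a 95% interval from 2.47 to 3.87, and with median-of-ratios scaling the fall was 5.74-fold. It was thus expressed in control liver at a level close to LPL, per length, and 259 listed genes had a higher mean there.

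Other binding proteins moved with fabp2. The liver-type gene fabp1 fell from 28.5 ± 3.56 to 10.3 ± 0.618 FPKM and DBI, the gene of the acyl-CoA binding protein, from 4.001 ± 0.537 to 0.999 ± 0.246 FPKM. The gene listed as fabph, named after its value was seen and outside the lists, fell with a log2 fold change of -1.81. In the list of fatty acid uptake and binding, 5 of the 7 listed genes had enough reads to test, of which 1 rose and 4 fell with a median log2 fold change of -1.47. The rise was that of SLC27A4, a fatty acid transporter gene named after its value was seen, from 0.137 ± 0.0440 to 0.881 ± 0.203 FPKM.

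Markers of other cell types were looked up beside these results. All 7 listed genes of the enterocyte list were higher in heat, opposite in direction to fabp2. Of these, 4 were copies of Chia, and over all tested listed genes 58.1% rose. The summed levels of the 7 were 5.95 to 7.50 FPKM in the control libraries and 19.4 to 19.7 FPKM in the heat libraries. Most of that level came from CDX1, at 5.40 ± 0.407 FPKM in control and 13.3 ± 0.9497 FPKM in heat, while the brush border genes vil1 and anpepa, named after their values were seen, stayed under 1 FPKM in both groups. With median-of-ratios scaling 5 of the 7 passed in that direction, and vil1 and a copy of Chia did not pass. Of the adipocyte list, 5 genes were listed, with sums of 16.1 to 17.02 FPKM in control and 175.9 to 188.7 FPKM in heat. These sums were made up mostly of pck1 and lep, which fish liver also expresses. The lipid droplet gene cidec rose from 3.14 ± 0.548 to 11.5 ± 1.11 FPKM and the complement factor gene CFD from 0.0460 ± 0.0398 to 0.708 ± 0.281 FPKM. The adipokine gene ADIPOQ had too few reads to test, 27 in control and 2 in heat, and was at 0.118 ± 0.0296 FPKM in control and 0.0120 ± 0.0104 FPKM in heat. The single listed endothelial marker, egfl7, fell with a log2 fold change of -1.03. The 5 listed myeloid genes, mmp9 and 4 copies of Cd163, were all higher in heat. Their sums were 0.827 to 0.954 FPKM in control and 8.84 to 11.4 FPKM in heat. Most of the heat sum came from a single Cd163 copy. It was at 0.320 ± 0.156 FPKM in control and 6.52 ± 0.975 FPKM in heat, from 4 and 101 reads. Of the pancreas list, 3 listed genes were matched by symbol, namely CELA2A and 2 copies of ins. Their sums were 0 to 0.195 FPKM in control and 2.75 to 4.37 FPKM in heat. These sums leave out the entry gcg2, which was not matched to the gcg of that list. Its level was above them, at 8.04 FPKM in control and 31.95 FPKM in heat. No skeletal muscle or erythrocyte marker was listed. Of the hepatocyte list, rbp4 fell from 5950 ± 207.4 to 1998 ± 135.8 FPKM, and the fibrinogen gene FGA rose in both copies, from 97.4 ± 12.9 to 450.1 ± 35.6 FPKM in the more abundant one. The part of changed cell content in the LPL, APOB and fabp2 results was not tested.

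Pdk2 was the most abundant of the 7 genes in control liver and fell in heat. Its level was 72.5, 76.8 and 75.5 FPKM in control replicates 1 to 3 and 18.9, 18.9 and 18.1 FPKM in heat replicates 1 to 3. Both groups were tight, with coefficients of variation of 2.95% and 2.27%. The log2 fold change was -2.01 ± 0.06 (SE, n = 3 per group, limma-voom adjusted p = 2.25e-33), a 4.02-fold fall with a 95% interval from 3.69 to 4.38, and with median-of-ratios scaling the fall was 7.47-fold.

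The second kinase entry, pdk2a, lay far lower, at 0.797, 0.615 and 0.823 FPKM in the control libraries and 0.307, 0.291 and 0.461 FPKM in the heat libraries. These levels rest on 27 to 37 reads per control library and 15 to 23 per heat library, and the gap between the groups was 1.33-fold. Its log2 fold change was -1.09 ± 0.34 (SE, n = 3 per group, limma-voom adjusted p = 0.00239), a 2.13-fold fall with a 95% interval from 1.33 to 3.41, and with median-of-ratios scaling the fall was 3.95-fold. In the authors' deposited table its adjusted p was 0.03892. The gene lengths behind both entries were alike, at 0.973 and 1.01 times that of LPL. Whether the authors' counting divided reads shared by such close copies is not known, so the lower entry is uncertain. Pdk2 exceeded pdk2a by 91.0, 124.9 and 91.7 times in control replicates 1 to 3 and by 61.4, 64.9 and 39.4 times in heat replicates 1 to 3. Every heat ratio lay below every control ratio, by 1.88-fold on average (exact permutation test, two-sided, p = 0.1, the smallest that 3 against 3 libraries can give).

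Genes around pyruvate dehydrogenase fell in all 7 tested cases, with a median log2 fold change of -1.19. Of these cases, 3 were copies of MPC2. Over all tested listed genes 41.9% fell, and the median was 1.13. They stood on both sides of the switch. PDHA1, the catalytic subunit that the kinases silence, fell from 1.78 ± 0.294 to 0.329 ± 0.216 FPKM. This entry rests on 166 reads in the control libraries together and 36 in the heat libraries. Any PDHA1 copy that did not pass the authors' selection would not be listed. The most abundant copy of MPC2, a subunit of the carrier that brings pyruvate into the mitochondrion, fell from 67.1 ± 1.88 to 29.3 ± 2.34 FPKM, and the least abundant from 12.8 ± 0.259 to 4.54 ± 0.105 FPKM. The lactate dehydrogenase gene ldhb fell from 4.02 ± 0.0907 to 1.35 ± 0.217 FPKM. Named after their values were seen, a further kinase gene, pdk1, had a log2 fold change of -1.06, and PDPR, which encodes a regulatory subunit of the opposing phosphatase, one of -1.05.

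CPT1A was higher in heat at a low level, and this call depends on the scaling. It was at 0.390, 0.307 and 0.217 FPKM in control replicates 1 to 3 and at 0.573, 0.782 and 0.735 FPKM in heat replicates 1 to 3, from 16 to 28 and from 60 to 66 reads per library. The groups did not overlap, with a 1.47-fold gap. The log2 fold change was 1.18 ± 0.30 (SE, n = 3 per group, limma-voom adjusted p = 0.000339), or 2.26-fold with a 95% interval from 1.49 to 3.44. Median-of-ratios scaling moved the median log2 fold change of all tested genes by -0.89, and CPT1A then had a log2 fold change of 0.28 (limma-voom adjusted p = 0.363). Scaling by the summed listed counts gave 0.44 (limma-voom adjusted p = 0.153). The other 6 genes passed in the same direction under each of these scalings.

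A further entry is named cpt1, without a letter, and was outside the symbols chosen. It was at 1.51, 1.32 and 1.12 FPKM in the control libraries and 9.18, 10.3 and 10.9 FPKM in the heat libraries, with a log2 fold change of 2.95 ± 0.18 (SE, n = 3 per group, limma-voom adjusted p = 1.62e-20). Its heat level was above that of CPT1A in every library. It is named here after its value was seen.

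**Figure D3:**
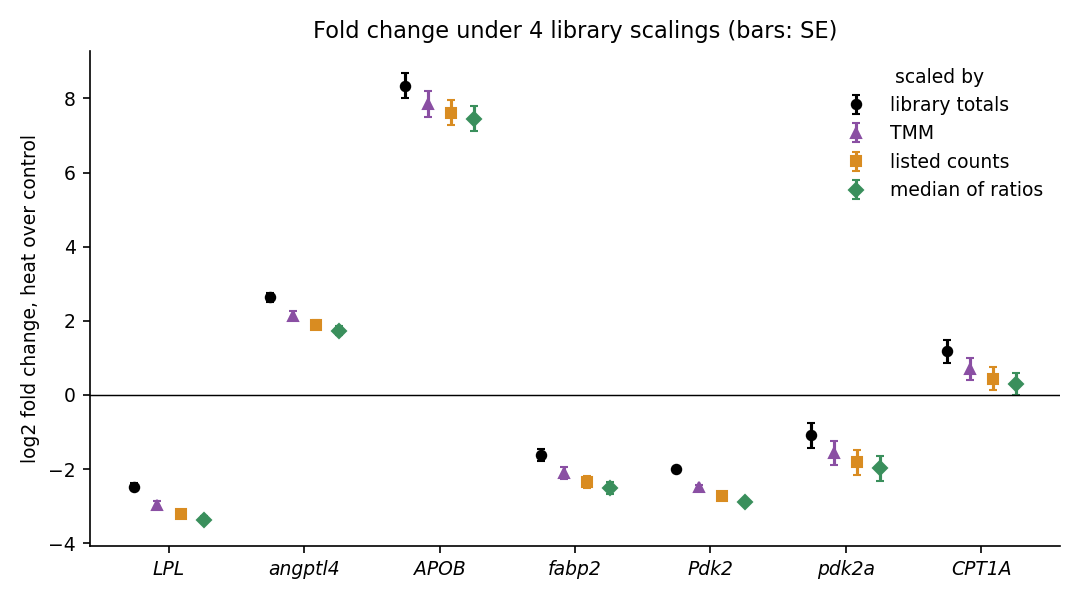
Log2 fold change of heat over control for the 7 genes from limma-voom (points) with its SE (bars), under 4 ways of scaling the libraries. The scalings shift all genes downward together, from 1.18 to 0.28 for CPT1A, and leave each gene on its side of 0.

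In the list of mitochondrial fatty acid oxidation and its carnitine supply and control, genes fell in 16 of 17 tested cases. CPT1A and the entry cpt1, both described above as higher in heat, lie outside this list and its counts. The 17 tested genes had a median log2 fold change of -1.32, and over all tested listed genes 41.9% fell. Not all genes of the list act past the CPT1 step. CRAT, the acetylcarnitine transferase gene, fell from 1.19 ± 0.110 to 0.178 ± 0.0420 FPKM, and Slc22a5, the gene of the carnitine importer of the cell membrane, from 2.43 ± 0.687 to 0.930 ± 0.217 FPKM. The 16 falls also include those of the acetyl-CoA carboxylases, whose product malonyl-CoA blocks CPT1. Acaca fell from 308.02 ± 11.5 to 113.6 ± 3.15 FPKM and the more abundant ACACB from 2.93 ± 0.0188 to 0.790 ± 0.164 FPKM. Named after their values were seen, the carnitine carrier gene slc25a20 had log2 fold changes of -1.14 and -1.02 in its copies. The single rise among the tested genes of the list was that of a copy of ucp2, a mitochondrial carrier gene, from 73.0 ± 4.12 to 166.6 ± 1.58 FPKM. All 3 listed genes of ketone formation and peroxisomal oxidation fell, and all were peroxisomal transporters of fatty acids. The more abundant copy of Abcd3 fell from 16.0 ± 0.743 to 2.82 ± 0.489 FPKM, the other copy from 2.77 ± 0.498 to 0.729 ± 0.0893 FPKM, and ABCD2 from 3.32 ± 0.0949 to 0.757 ± 0.138 FPKM.

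Regulators of fuel use went both ways, with 7 rises and 10 falls among 17 tested and a median log2 fold change of -1.18. The liver transcription factor gene hnf4a fell from 15.3 ± 1.41 to 3.602 ± 0.988 FPKM, the co-regulator gene cited2 from 6.45 ± 0.992 to 1.33 ± 0.304 FPKM, and the more abundant copy of rxrga, a partner of PPAR, from 5.34 ± 0.0568 to 1.18 ± 0.193 FPKM. The transcription factor gene klf9 rose from 4.27 ± 0.329 to 17.9 ± 0.713 FPKM. Its relative klf15, named after its value was seen, fell from 5.68 ± 0.426 to 2.55 ± 0.380 FPKM. Named after their values were seen, PPARA and pparab, genes of the receptor that drives angptl4, Pdk and CPT1 genes in mammals, fell with log2 fold changes of -1.84 and -1.40. An entry outside the list, pparb, was at 1.44 FPKM in control and 3.94 FPKM in heat. Of the 7 rises, those of PPARD, foxo1a and srebf2 lost their calls with median-of-ratios scaling, which left 4 rises and 10 falls.

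**Figure D4:**
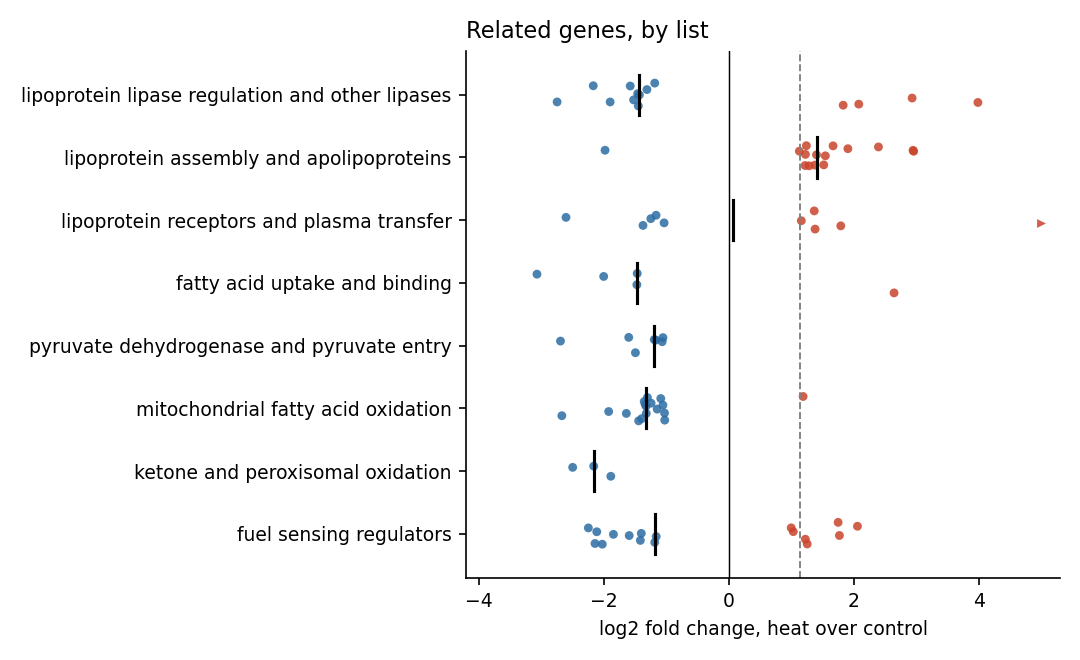
Log2 fold change of heat over control for every tested gene of the 8 related lists; each point is a gene (red higher, blue lower in heat), black bars are list medians, and the dashed line is the median of all tested listed genes, 1.13. The triangle at the right edge is lrp1ba, with a fitted value of 8.44 beyond the axis. In the lipoprotein assembly list 14 of 15 genes lie to the right of 0. In the fatty acid oxidation list, which leaves out CPT1A and cpt1, 16 of 17 lie to the left.

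LPL, angptl4 and fabp2 also share an annotation. It was not used to choose them, but they were chosen by name as lipid genes, so it is no independent result. The first pathway entry that the deposited table gives for each is PPAR signalling, and for CPT1A it is adipocytokine signalling. APOB, Pdk2 and pdk2a have no pathway entry. Over all 18 listed genes with PPAR signalling as the first entry, LPL, angptl4 and fabp2 among them, 15 had enough reads to test. Of these 6 rose and 9 fell, beside 58.1% and 41.9% of all tested listed genes. The falls included the desaturase gene scdb, from 1263 ± 13.9 to 386.4 ± 23.1 FPKM, and the rises the more abundant copy of the lipid droplet gene PLIN2, from 12.03 ± 1.37 to 75.9 ± 1.88 FPKM. Both are named after their values were seen. A further PLIN2 entry, outside those 18, was at 6.79 FPKM in control and 1.38 FPKM in heat.

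The order of the 7 genes by level changed, with APOB moving from last to first and CPT1A and pdk2a low in both groups. In control liver it ran Pdk2, LPL, fabp2, angptl4, pdk2a, CPT1A and APOB, from 74.9 ± 2.21 down to 0.0877 ± 0.0491 FPKM (SD, n = 3). In heat it ran APOB, angptl4, Pdk2, fabp2, LPL, CPT1A and pdk2a, from 26.3 ± 0.547 down to 0.353 ± 0.0939 FPKM. Neighbours in either order did not overlap between libraries, although LPL stood only 1.26-fold above fabp2 in control, and in heat APOB stood 1.20-fold above angptl4 and angptl4 1.18-fold above Pdk2. Among all 5045 listed genes, APOB moved from rank 4731 in control to rank 337 in heat, angptl4 from rank 1219 to 389, LPL from 218 to 1255 and Pdk2 from 95 to 453.

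**Figure D5:**
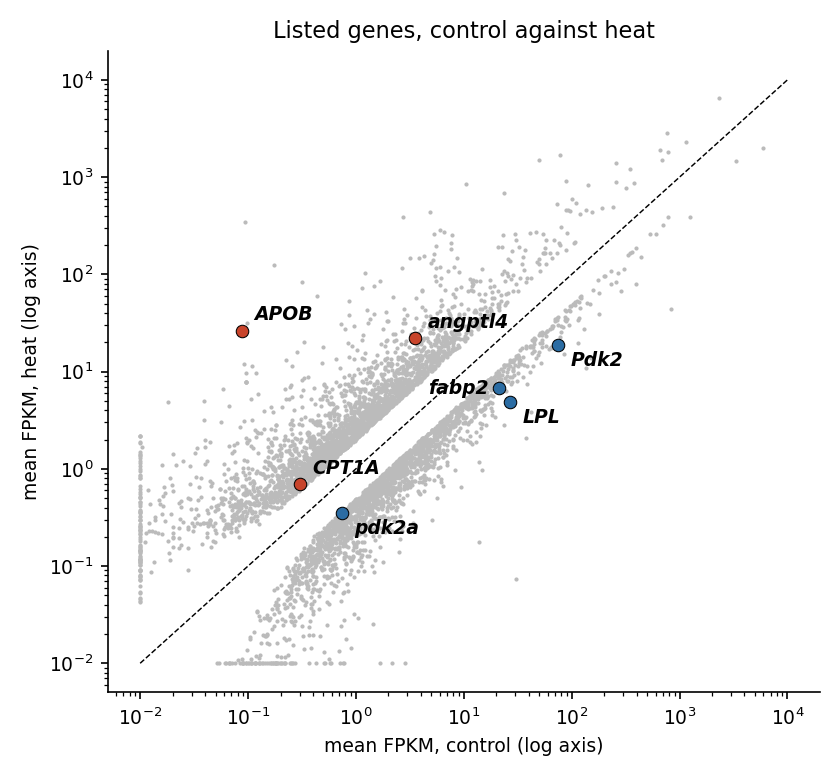
Mean FPKM of each listed gene in control (x) and heat (y), both on log axes; grey points are the 5045 listed genes, with means under 0.01 FPKM drawn at 0.01, and the 7 genes are labelled (red higher, blue lower in heat). The empty band along the dashed line of equality shows the authors' selection; APOB stands far above it and CPT1A and pdk2a lie at its edges.

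The listed genes whose pattern over the 6 libraries was closest to each of the 7 were found by the distance between centred log2(FPKM + 0.1) values among 3280 candidates with a symbol and at least 1 FPKM. For LPL they were GPCPD1, a zfp36l2 gene and mid1ip1b, at distances of 0.180, 0.199 and 0.209. For angptl4 they were vsig10, ATP2A2 and Ppp2r5b, at 0.133, 0.160 and 0.169. For Pdk2 they were NUCKS1, TXNIP and igf1, at 0.0678, 0.0969 and 0.144, where TXNIP encodes a brake on glucose uptake and igf1 the liver growth factor. For APOB the closest were the co-chaperone gene dnaja, an hsp70 gene and tcbp2, at 0.558, 0.859 and 0.935. The added 0.1 FPKM exceeds the APOB control mean and lowers its log2 fold change from 8.35 to 7.17, so these neighbours may depend on it. The fitted log2 fold changes of the 3 were 7.15, 7.06 and 8.42. For fabp2 they were GRAMD2B, Shisa7 and PLXDC1, for CPT1A NFE2L1, irlB-1 and Uap1, and for pdk2a STK26, csn5 and ARMC1.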

How the data were processed

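Per the labels' protocols, cDNA libraries were made from total RNA of rainbow trout liver, 3 per group. The submitters' processing notes list StringTie and Bowtie2 2.2.8. Genome build and annotation, and which test gave the authors' p-values, were not given in sources used here. The deposited table gives a read count and an FPKM value per gene and library, and, for each gene, group means, a log2 fold change and both a raw and an adjusted p-value of the authors, per the file headers. It is fixed-width text of 8 characters per column, so symbols may be incomplete. Its 822 lines of wrapped annotation were left out. Because an earlier look at this layout had not verified the count columns by machine, limma-voom was used in place of a negative binomial test. The values then read from those columns were all whole numbers.

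Library totals were recovered as the median ratio of count to FPKM for the 451 genes that reached 200 counts and 5 FPKM in every library. A gene entered the two-sided limma-voom test (limma 3.58.1, R 4.3.3) if 3 libraries held 10 counts or more, and Benjamini-Hochberg adjustment ran over all 4766 such genes. All 7 chosen genes passed this filter. Confidence intervals are 95%. On simulated counts for these 4766 genes with 200 changed, 87.0% of 2-fold and 100% of 4-fold changes were recovered and 3.61% of the calls were false. The simulation used a single fixed dispersion, known totals and mostly unchanged genes, whereas all genes of the real list had been selected as changed. Its shares therefore give no error rate for the calls made here. Figures and tables used Python 3.11.15 with matplotlib 3.10.9, scipy 1.17.1, pandas 2.3.3 and numpy 2.4.6. Chi-square per gene between libraries of a group was 2.28 to 3.90, above the value of 1 that counting noise gives, so none were counted as 1 sample. Separate libraries of 1 fish could also differ this much.

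The genes, the 8 related lists and the 8 marker lists were chosen with earlier results of these data known. List genes were matched by symbol, with paralogue letters allowed, and the 7 chosen genes were left out of these lists. A digit written directly after a symbol was not matched, so entries such as lipe1 and gcg2 lie outside the lists. Named from a list were all its genes where 4 or fewer were listed, and otherwise the 4 with the largest absolute log2 fold change and at least 1 FPKM in the higher group. Of the 7 symbols, 4 were also found among RefSeq symbols (USDA_OmykA_1.1 assembly). No coordinates or sequences are printed, and the planned search of promoter motifs was not made. Some genes that the naming rule takes in are not reported here.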

Additional observations from a re-analysis of the deposited data

How the results depend on the processing

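Over the alternatives run (other library scalings and count filters, FPKM with pseudocounts of 0.01, 0.1 and 1, a replicate block, and each library left out), LPL, angptl4, APOB, fabp2 and Pdk2 kept their direction and stayed past the threshold in all 15, and pdk2a in all 14 that could test it, since it has too few reads for the filter of 30 counts. CPT1A lost its call in 2 of 15, at a log2 fold change of 0.44 when scaled by listed counts and 0.28 with median-of-ratios scaling. The latter also lowered the rises among all listed genes from 2770 to 1733 against 1996 falls. All 1996 falls kept their calls under every scaling, so a fall that stays past the threshold there is a property of the list. Over all related lists, the 32 rises became 28 under both and 30 with TMM scaling, and the 56 falls stayed 56. The APOB log2 fold change ran from 4.65 with a pseudocount of 1 FPKM to 8.78 without control replicate 2. Sizes depended on the scaling. From recovered totals to median-of-ratios scaling, LPL went from 5.56 to 10.3-fold, Pdk2 from 4.02 to 7.47-fold, fabp2 from 3.09 to 5.74-fold and pdk2a from 2.13 to 3.95-fold lower, and angptl4 from 6.19 to 3.33-fold and APOB from 326 to 175-fold higher; TMM and listed-count scaling lay between. Leaving out single libraries moved LPL between -2.55 and -2.36, and no member by more than 1.35-fold. The p-values moved far more. For Pdk2 the limma-voom adjusted p ran from 8.88e-153 to 3.06e-17 while the log2 fold change stayed between -2.03 and -1.99. The size of a p-value is therefore not to be read as strength. With the replicate block all 7 genes passed, APOB at 8.19 and CPT1A at 1.16. Same-numbered libraries showed little shared deviation (correlations 0.0267, 0.0116 and -0.00931). Control replicates 1 and 2 correlated best with the heat library of the same number, and control replicate 3 with another. Correlations this small from so few libraries cannot tell whether the numbers carry a pairing. The numbers are used here to name libraries only. Depth limits pdk2a and CPT1A, at 15 to 66 reads per library, and the control level of APOB, at 9 to 25.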
